A study of Mus musculus with 12 samples.

Results

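A set of 186 liver genes had transcript levels at least 4-fold lower on a high-fat diet than on a normal diet, both in wild-type mice and in mice lacking NLRP6. They were selected on measured values: the ratio of the mean CPM (a gene's read count scaled to its library's total) on the high-fat diet to that on the normal diet, with 0.1 CPM added to each mean, had to be at most 0.25 in each genotype. The choice was made among 11702 annotated genes with a mean of 1 to 1000 CPM over all 12 libraries, of which the members are 1.59%, and the whole count table has 42554 rows. Genes whose ID number lies within 200 of the 1 gene with at least 5 counts in every wild-type library and 0 in every knockout library were left out beforehand. A further 12 genes met the mirrored rule, at least 4-fold higher in both genotypes.

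Whole liver was taken from 4 groups of mice with 3 libraries each. Wild-type mice on the normal diet (WT ND) and NLRP6 knockout mice on it (KO ND) stayed on that diet, and wild-type (WT HFD) and knockout mice (KO HFD) received the high-fat diet for 12 weeks from 8 weeks of age. The series text states that NLRP6 was absent from the hepatocytes of the knockouts. It does not say whether other cells kept it, and the strain, sex and diet composition are also not given in the sources used here. The study asks what NLRP6 does in fat storage by hepatocytes. NLRP6 is a NOD-like receptor known for forming inflammasomes, chiefly described in the gut.

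The liver sets many of its transcripts by the nutrients that reach it. Transcription factors of the SREBP family drive genes of sterol and fatty acid synthesis and are held back when sterols are plentiful, and nuclear receptors respond to fatty acids, bile acids and oxysterols. A long high-fat diet can also alter the mix of cells in the liver, and in bulk tissue fewer cells of a type cannot be told apart from less RNA per cell.

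The count table names genes by IDs of a C57BL/6NJ strain annotation. None of these IDs was found in the tables that pair IDs with symbols (0 matches), so no member has a symbol, function, position or sequence here, and neither NLRP6 itself nor markers of liver and other cell types could be checked. Members are described by rank, by counts and by range, and 4 of them by ID. Levels below are normalised CPM, scaled by the trimmed mean of M-values (TMM) method of edgeR, unless a rule ratio is named. No level was corrected for gene length, so ranks by CPM are not ranks of transcript number. Library totals were 13339879 to 15933886 counts, and all 186 members had enough counts to be tested. The median level of the members varied more among the KO HFD libraries than within any other group (SD 0.317 on the log2 scale, against 0.0295 to 0.0551), and the main results that rest on these libraries are also given with 1 of them left out.

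On the normal diet the members covered a wide range of levels, and on the high-fat diet they were low throughout. In WT ND the group means ran from 0.997 to 275 normalised CPM over the members with a median of 12.0, and in KO ND from 1.59 to 419 with a median of 12.4. The medians were 1.78 in WT HFD and 2.18 in KO HFD, and the highest means there were 51.0 and 42.2. A typical member had 186.5 counts per library in WT ND and 204 in KO ND, against 23 in WT HFD and 27 in KO HFD (medians over members and libraries). No member had 0 counts in any ND library. At least 1 HFD library had 0 counts for 19 members, but no member was at 0 in all 3 libraries of an HFD group. The summed counts of a group's 3 libraries were at or under 9, the level that 3 counts per library would give, for 20 members in WT HFD and 7 in KO HFD, so the folds of these genes are imprecise.

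The size of the difference was chosen by the rule and is given as a description. By the rule's ratio the members were 4.02-fold to 52.6-fold lower in WT with a median of 6.36-fold, and 4.10-fold to 57.4-fold lower in KO with a median of 5.74-fold. At least 8-fold lower levels were found for 58 members in WT, 44 in KO and 24 in both. At least 16-fold lower levels were found for 7, 4 and 2 members. The values in KO moved with single HFD libraries. With KO HFD replicate 1, 2 or 3 left out, the same 186 genes were a median 5.19-fold, 6.55-fold or 5.82-fold lower in KO, and 33, 66 or 42 of them were at least 8-fold lower. At least 16-fold lower were then 4, 14 or 6. The ratio was lower in WT for 104 members and in KO for 82. In 133 members the WT and KO ratios lay within 1.5-fold of each other. In 19 the ratio was at least 2-fold lower in WT than in KO, and in 3 at least 2-fold lower in KO. Over the 186 members the log2 ratios of the genotypes gave a Spearman coefficient of 0.42. This describes genes, not replicates, and the rule had cut their range on both axes. Median folds over 4 classes of abundance lay between 5.05 and 7.78. Members under 5 CPM on ND (44 genes) were a median 6.85-fold lower in WT and 5.05-fold in KO, and those from 20 to 100 CPM (55 genes) 6.71-fold and 5.95-fold.

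**Figure D1:**
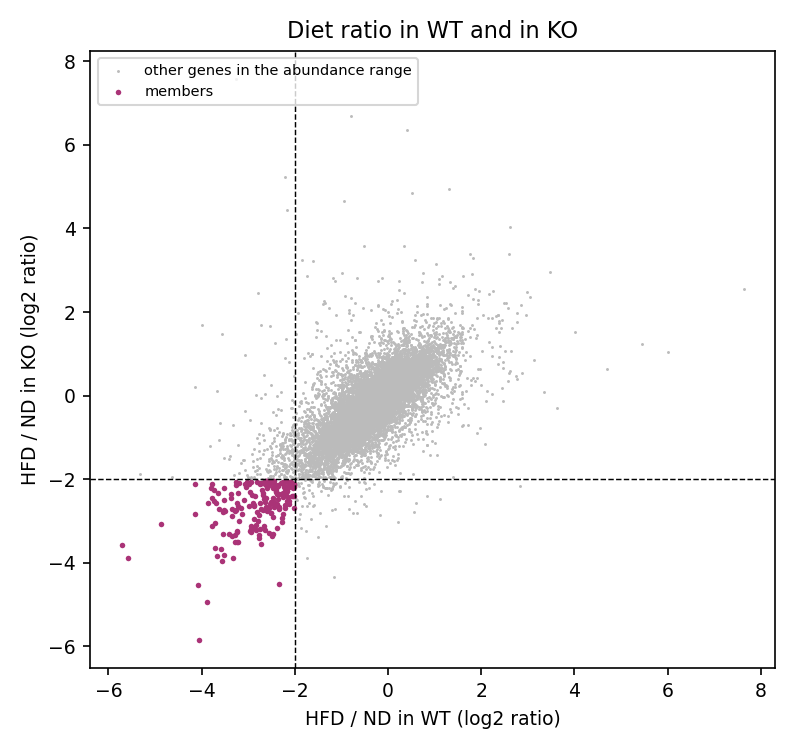
Each point is 1 of the 11702 genes in the abundance range, placed by its log2 ratio of mean CPM on HFD to that on ND in WT (horizontal) and in KO (vertical), with dashed lines at the rule's threshold of 0.25. The 186 members fill the lower left corner, and for 84 of them the larger ratio is between 0.2 and 0.25.

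Scaling by library totals places most genes lower on HFD, so the rule's ratios include that shift. The median log2 difference between HFD and ND over all 13843 genes tested was -0.32 in WT and -0.19 in KO on library totals, and -0.03 and 0.01 after TMM scaling. On the TMM scale the members' median was -2.49 in WT and -2.41 in KO. With TMM-scaled CPM in the rule, 115 of the 186 genes met it and no others did. In edgeR's quasi-likelihood test 184 members were called lower on HFD in WT, beside 21.5% of all genes tested, and 184 in KO, beside 22.1%; the rule used these contrasts, so nothing is read from these counts. The levels of the 3 ND libraries all lay above those of the 3 HFD libraries for 184 members in WT, beside 29.9% of the genes in the abundance range, and for 186 in KO, beside 30.7%. For 179 members, beside 17.0%, the lowest of all 6 ND libraries lay above the highest of all 6 HFD libraries. The rule selected on these values too, and nothing is read from the counts.

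The rule's edge cut through a dense part of the distribution. The member nearest to the threshold had ratios of 0.249 in WT and 0.156 in KO, and the next had 0.248 and 0.189. The nearest genes outside had 0.251 and 0.239, and 0.251 and 0.243. The larger of a gene's ratios was between 0.2 and 0.25 for 84 members, and between 0.25 and 0.3 for 111 genes outside.

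Single members show what the group medians hide. The member with the highest CPM on ND had 144, 348 and 333 CPM in the WT ND libraries and 358, 348 and 551 in the KO ND libraries. Its levels were 48.6, 54.9 and 49.4 CPM in WT HFD and 34.3, 41.7 and 46.0 in KO HFD. Every HFD library was thus below every ND library for this gene, although WT ND replicate 1 had less than the other ND libraries. The fourth had 11.04, 102 and 124 CPM in WT ND and 74.5, 193 and 358 in KO ND. On HFD it had 25.3, 15.4 and 16.5 CPM in WT and 11.1, 12.2 and 8.10 in KO. Its WT groups overlapped, with WT ND replicate 1 below all 3 WT HFD libraries, while its KO groups did not. The third-ranked member was steadier on ND, with 147, 131 and 144 CPM in WT ND and 184, 160 and 158 in KO ND, against 24.1, 17.7 and 15.5 in WT HFD and 13.5, 38.3 and 35.5 in KO HFD. Here KO HFD replicate 1 was the lowest library and replicates 2 and 3 were above all WT HFD libraries.

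The members with the lowest ratios over both genotypes were left with few counts on HFD. They are ranked by the rule's ratios, but the folds given here are ratios of summed counts with TMM scaling. No 0.1 CPM was added, so these folds differ from those above and can exceed their range. By the rule's ratio the second-ranked gene was 47.85-fold lower in WT and 14.8-fold lower in KO. The gene ranked first had 751, 660 and 825 counts in WT ND and 18, 79 and 31 in WT HFD, a level 13.8-fold lower (95% exact binomial interval 11.6 to 16.6). In KO it had 806, 783 and 636 counts on ND and 6, 11 and 15 on HFD, 55.7-fold lower (39.3 to 81.6). The second-ranked had 107, 102 and 96 counts in WT ND and 0, 0 and 2 in WT HFD, 121-fold lower with an interval from 33.1 to 1001. It had 103, 133 and 107 counts in KO ND and 2, 6 and 10 in KO HFD, 15.3-fold lower (9.51 to 26.1). The third-ranked had 320, 148 and 202 counts in WT ND against 5, 1 and 2 in WT HFD, and 160, 222 and 168 in KO ND against 3, 26 and 10 in KO HFD. It was 66.2-fold lower in WT (33.4 to 154) and 11.3-fold lower in KO (8.16 to 16.1). The intervals of WT and KO do not overlap for these 3 genes, but they cover counting error only and leave out the spread between libraries, such as that from 18 to 79 counts of the first in WT HFD.

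Together the members held a small share of each library. They took 0.432%, 0.449% and 0.489% of the counts in the WT ND libraries and 0.495%, 0.543% and 0.563% in the KO ND libraries. Their share was 0.0655%, 0.0687% and 0.0675% in the WT HFD libraries and 0.0518%, 0.109% and 0.0846% in the KO HFD libraries. Each share has a 95% Wilson interval of at most 0.00381 percentage points to either side, for counting error only. The ND and HFD libraries do not overlap, and on ND the 3 KO libraries lie above the 3 WT libraries. The rule chose members on the diet ratio and favoured a high KO ND mean, so nothing is read from either. The group means were 0.457% ± 0.0292 in WT ND, 0.0672% ± 0.00160 in WT HFD, 0.534% ± 0.0347 in KO ND and 0.0818% ± 0.0287 in KO HFD (mean ± SD of n = 3). The 10 members highest on ND held 31.2% of the members' counts there.

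**Figure D2:**
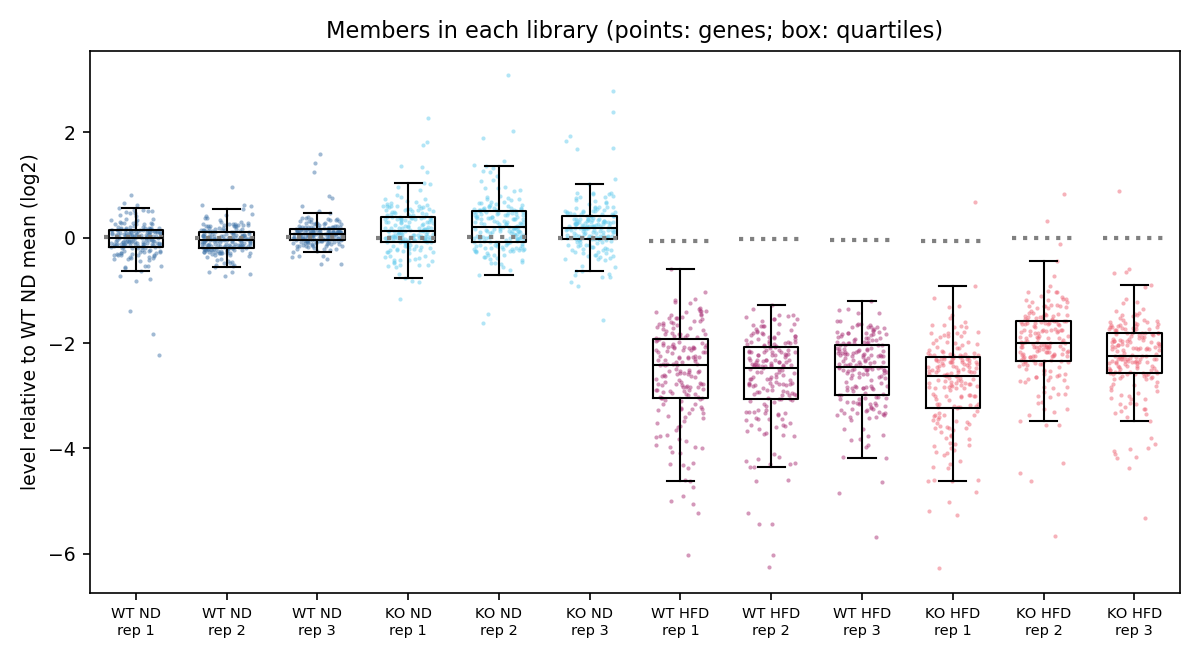
For each of the 12 libraries, points give the log2 level of the 186 members relative to each gene's mean log2 level in WT ND (0.1 CPM added), boxes give their quartiles with the median as a line, whiskers reach the farthest point within 1.5 box lengths, and dotted lines give the median over all 11702 genes in the abundance range. The WT HFD medians lie at -2.42, -2.48 and -2.45, and the KO HFD medians at -2.63, -2.00 and -2.24.

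The KO HFD libraries differed among themselves across most of the set. Replicates 1, 2 and 3 had median log2 levels of -2.63, -2.00 and -2.24 relative to WT ND, while the WT HFD libraries had -2.42, -2.48 and -2.45. Replicate 1 was the lowest of the 3 for 131 members (70.4%), against 43.9% of the genes in the abundance range. Replicate 2 was the highest for 111 members (59.7%), against 39.3%. Between these libraries 157 members were higher in replicate 2, by a median log2 difference of 0.65, where the genes in the abundance range had a median of 0.03. The numbers of members above their WT HFD mean were 61, 143 and 127 in replicates 1, 2 and 3. The median log2 level against that mean was -0.29, 0.49 and 0.24 over the members. Over the genes in the abundance range it was -0.01, 0.02 and 0.005. In the single library of KO HFD replicate 2, 129 of the 186 members were at or under a ratio of 0.25 to the KO ND mean. There were 179 in replicate 1 and 153 in replicate 3. The rule chose members on the mean of these libraries, so these counts are a description.

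Genes were next chosen without 1 library and read in it. The rule was applied again to 11 libraries at a time, and the genes it chose were read in the library left out, against the ND mean of its genotype (or, for an ND library, against the HFD mean). Only the library left out was free of the choice, since the mean it was read against had been used by the rule. Between 143 and 234 genes were chosen. In the WT HFD libraries left out, 77.8%, 88.5% and 89.7% of the chosen genes were again at least 4-fold lower, and in the ND libraries left out 81.1% to 94.4%. Among KO HFD libraries this held for 93.0% of 143 genes in replicate 1, for 53.8% of 234 in replicate 2 and for 72.2% of 187 in replicate 3. Their median folds were 8.75, 4.15 and 5.39. Without KO HFD replicate 1 the rule thus gave 143 genes, 140 of them among the 186, and without replicate 2 it gave 234, with 183 of the 186.

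**Figure D3:**
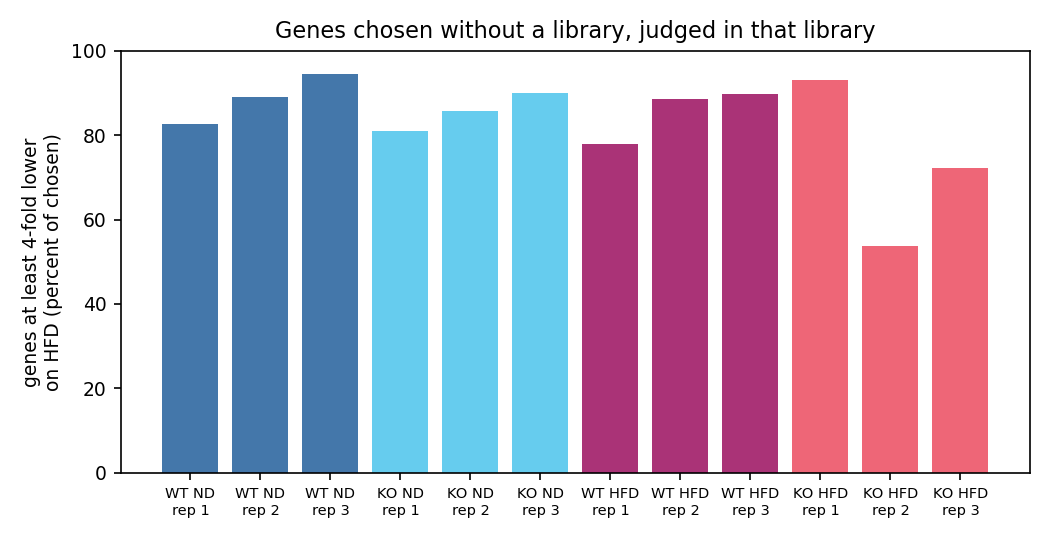
Bars give the percentage of genes that were at least 4-fold lower on HFD in the library named below the bar, among genes chosen by the same rule from the other 11 libraries. The bars stand between 77.8% and 94.4% except for KO HFD replicates 2 (53.8%) and 3 (72.2%).

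A second check chose genes in 1 genotype and tested them in the other, whose libraries were not used for the choice, although the model's estimate of spread used all 12. The 6 WT libraries alone gave 425 genes at least 4-fold lower on HFD. In the KO libraries 336 of these (79.1%) were called lower on HFD by edgeR's quasi-likelihood test at an adjusted p under 0.05, compared with 22.1% of all genes tested, and 7 were called higher. Their median log2 difference in KO was -1.73, against 0.01 over all genes. By the rule's ratio 184 were also at least 4-fold lower in KO, 178 were 2-fold to 4-fold lower, 43 were lower by less, and 20 were not lower. The 6 KO libraries alone gave 292 genes, of which 247 (84.6%) were called lower in WT, compared with 21.5% of all genes, and 1 was called higher. Their median log2 difference in WT was -2.11. The lists share 182 genes, 42.8% of the WT list and 62.3% of the KO list. Over all alternatives, which included leaving out each library and using DESeq2, 302 to 349 of the 425 and 225 to 251 of the 292 were called lower.

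Differences between genotypes were not part of the rule, but they are not fully free of it. The rule was met by 427 of the genes in the abundance range in WT and by 284 in KO, so a high ND mean or a low HFD mean in KO favoured membership. On ND, 4 members were called higher in KO and 0 lower by edgeR's quasi-likelihood test, beside 1.96% and 2.85% of all genes tested. At an unadjusted p under 0.05 there were 24 higher and 4 lower members, beside 1431 and 1520 of the 13843 genes, and DESeq2 called 13 higher and 2 lower, beside 4.46% and 4.98% of all genes. The log2 difference between KO and WT on ND had a median of 0.15 over the members, with quartiles of -0.07 and 0.41, against -0.00 over all genes. It was positive for 128 members (68.8%), against 49.7% of all genes. The 3 KO ND libraries lay above the 3 WT ND libraries for 53 members (28.5%), against 16.0% of the genes in the abundance range, and below them for 7 (3.76%), against 17.3%. The number called depended on single libraries. It was 0 when replicate 2 of WT ND or of KO ND was left out, and 1 when WT ND replicate 1 was. It was 2 when KO ND replicate 3 was and 9 when KO HFD replicate 1 was, all higher in KO. Calls over all genes moved as well. Without each of these ND libraries in turn, 0.162% to 1.19% of all genes were called higher and 0.486% to 1.77% lower. Without KO HFD replicate 1, 3.58% were called higher and 4.71% lower. Besides the gene described below by ID, the members called on ND had log2 differences of 1.18, 1.38 and 1.75 (edgeR adjusted p of 0.0311, 0.0289 and 0.0208). The one at 1.38 had means of 11.5 CPM in WT ND and 29.9 in KO ND, and under 1 CPM in both HFD groups. The rule's KO ratio favoured members with a high KO ND mean, so the calls of single members on ND are a description. To read the sign in libraries outside the choice, members were chosen anew without 1 KO ND and 1 WT ND library and those 2 libraries were compared. The 9 possible pairs come from 6 libraries, each used in 3 pairs, so they are not independent. Their median log2 differences ran from 0.03 to 0.29, with 52.5% to 73.9% of the chosen genes higher in KO. Over all genes in the abundance range 47.4% to 51.3% were.

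On HFD no member was called between genotypes, 0 higher and 0 lower in edgeR's quasi-likelihood test, beside 0.0867% and 0.159% of all genes. At an unadjusted p under 0.05, 28 members were higher in KO and 5 lower, beside 6.18% and 4.83% of all genes, and DESeq2 called 0 higher and 2 lower, beside 0.982% and 0.903% of all genes. The median log2 difference was 0.25 over the members and 0.01 over all genes, and it was positive for 130 members (69.9%), against 52.0% of all genes. The spread was wide, from -2.03 to 3.53. The KO HFD and WT HFD libraries did not overlap for 11 members higher in KO (5.91%) and 7 lower (3.76%), against 6.54% and 5.94% of the genes in the abundance range. This comparison moved with single libraries. With KO HFD replicate 1, 2 or 3 left out, 148, 98 or 124 members were higher in KO, beside 50.8%, 51.9% or 52.2% of all genes. At an unadjusted p under 0.05 there were then 51 higher and 6 lower, 11 and 6, or 17 and 5 members. For all genes those shares were 11.3% and 11.2%, 3.40% and 3.08%, and 4.24% and 3.01%. The groups did not overlap for 65 members higher and 10 lower without replicate 1, 11 and 14 without replicate 2, and 17 and 10 without replicate 3. In the same order, 2583 and 2256, 1108 and 966, and 1053 and 924 of the 11702 genes in the abundance range did not overlap. Without KO HFD replicate 1, the library with the lowest levels of the members, 20 members were called higher in KO and 1 lower, beside 3.34% and 2.45% of all genes, and the median log2 difference was 0.42. Without KO HFD replicate 2 the median was 0.07 and no member was called, beside 0.0352% of all genes higher and 0.0492% lower. Without WT HFD replicate 1, 1 member was called lower, beside 0.0494% higher and 0.120% lower of all genes. Choosing the members without the KO HFD and the WT HFD library compared gave medians from -0.28 to 0.66 over the 9 pairs of these 6 libraries. The 3 pairs with KO HFD replicate 1 had negative medians and the other 6 positive ones.

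**Figure D4:**
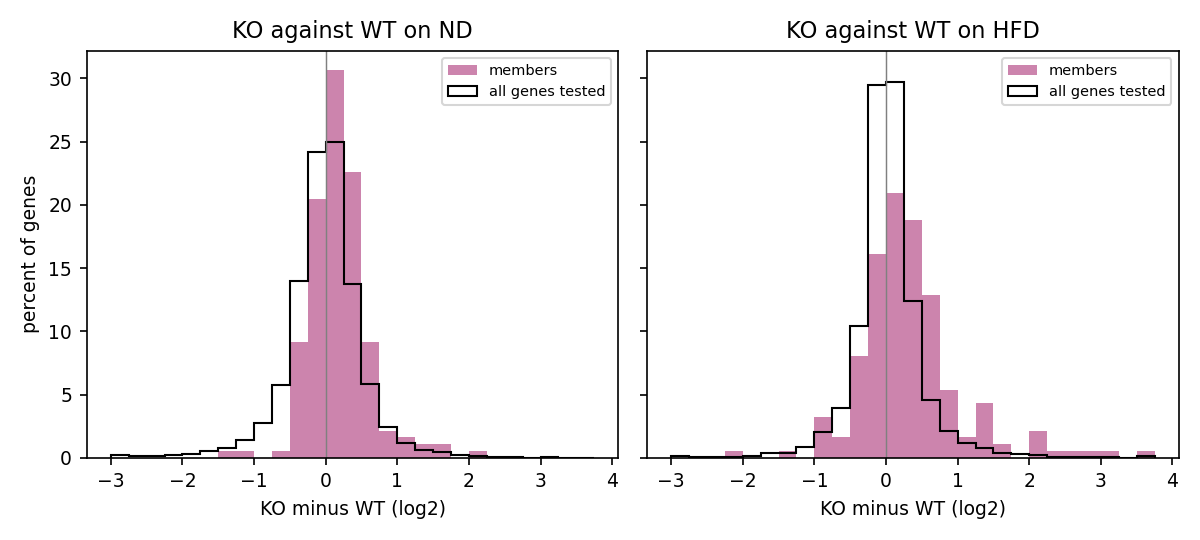
Histograms give the percentage of the 186 members (filled) and of all 13843 genes tested (outline) by the fitted log2 difference between KO and WT, on ND (left) and on HFD (right), with values beyond the axis placed in the outermost bins. The members' medians are 0.15 on ND and 0.25 on HFD, and those of all genes -0.00 and 0.01.

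Averaged over the diets, 2 members were called higher in KO and 1 lower by edgeR's quasi-likelihood test, beside 0.383% and 1.17% of all genes tested. At an unadjusted p under 0.05 the counts were 37 higher and 4 lower, beside 8.53% and 8.60% of all genes, and DESeq2 called 8 higher and 4 lower, beside 1.58% and 2.86%. The median log2 difference was 0.22, against 0.01 over all genes, and 144 members (77.4%) were positive, against 51.8%. The rule used the group means behind this contrast, and it was not read in libraries outside the choice. These counts and shares are therefore a description. The count of 3 called members was 27 without KO HFD replicate 1 (24 higher and 3 lower, beside 3.17% and 4.30% of all genes). It was 6 without WT HFD replicate 1, 3 in each direction beside 0.416% and 1.20%, and 5 without WT ND replicate 3, 4 higher and 1 lower beside 0.422% and 1.07%. It was 1 without any of WT ND replicate 2, KO ND replicate 3, WT HFD replicate 3, KO HFD replicate 2 and KO HFD replicate 3. Beside these, 0.0633% to 0.205% of all genes were called higher and 0.373% to 0.633% lower.

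Of the members called higher in KO on average, MGP_C57BL6NJ_G0032539 was the steadier. It had 11.6, 9.80 and 10.5 CPM in WT ND and 21.9, 19.6 and 17.5 in KO ND. On HFD it had 2.46, 2.22 and 2.75 CPM in WT and 3.80, 3.39 and 3.23 in KO. All KO libraries were above all WT libraries on each diet. The means were 10.6 ± 0.900 and 19.7 ± 2.16 on ND and 2.47 ± 0.267 and 3.47 ± 0.293 on HFD (SD, n = 3 each). Its log2 difference was 0.69 averaged over the diets (SE 0.12, edgeR adjusted p = 0.0148) and 0.89 on ND (SE 0.16, edgeR adjusted p = 0.00858). On HFD it was 0.49 (SE 0.19, edgeR adjusted p = 0.349). The call on average held under all 15 alternatives, with an adjusted p of at most 0.0483. These alternatives kept the same gene. The rule used its group means and favoured a high KO ND mean, so its calls are a description.

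MGP_C57BL6NJ_G0004126 was a low member with a larger difference. Its group means were 0.997 and 0.134 normalised CPM in WT ND and WT HFD, and 3.31 and 0.768 in KO ND and KO HFD. It reached the rule's lowest mean of 1 CPM only through its KO ND libraries. The choice thus favoured its higher level in KO, and its call is a description. It had 4, 21 and 22 counts in WT ND and 51, 55 and 55 in KO ND, and 3, 1 and 1 counts in WT HFD and 16, 6 and 7 in KO HFD. KO was above WT in every library on each diet, and WT HFD lay at or under 3 counts. From the summed counts KO was 3.34-fold higher on ND (95% exact binomial interval 2.40 to 4.73) and 5.59-fold higher on HFD (2.14 to 18.5). The log2 difference averaged over the diets was 2.08 (SE 0.47, edgeR adjusted p = 0.0460). This call was lost without any 1 of 9 libraries, which were all but WT ND replicates 1 and 3 and KO HFD replicate 1, with adjusted p from 0.0518 to 0.134. The difference itself stayed between 1.75 and 2.43 over its alternatives.

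The member called lower in KO was MGP_C57BL6NJ_G0016675. It had 32.4, 43.1 and 34.6 CPM in WT ND and 27.0, 33.7 and 23.3 in KO ND, groups that overlap. On HFD it had 9.82, 9.02 and 11.2 CPM in WT and 5.99, 4.45 and 6.17 in KO, with no overlap. Its log2 difference was -0.62 averaged over the diets (SE 0.13, edgeR adjusted p = 0.0285), -0.39 on ND (SE 0.17, edgeR adjusted p = 0.204) and -0.85 on HFD (SE 0.19, edgeR adjusted p = 0.109). The call on average was lost without WT ND replicate 2, KO ND replicate 1, KO ND replicate 3, WT HFD replicate 3, KO HFD replicate 2 or KO HFD replicate 3, with adjusted p from 0.0638 to 0.0929. MGP_C57BL6NJ_G0023485 had the lowest p among the other members with lower levels in KO and was not called. It had 17.8, 14.3 and 12.8 CPM in WT ND against 8.20, 5.36 and 8.77 in KO ND, and 1.80, 5.20 and 3.80 in WT HFD against 1.52, 2.64 and 1.58 in KO HFD. Its groups overlapped on HFD and not on ND. The log2 difference averaged over the diets was -0.96 (SE 0.24, edgeR adjusted p = 0.0670). It was called by DESeq2 (adjusted p = 0.00639) and in edgeR without a filter on low counts (adjusted p = 0.0229). EdgeR also called it without WT HFD replicate 1 (adjusted p = 0.0188) and without KO HFD replicate 1 (adjusted p = 0.0478). It was not called under its other 11 alternatives. The rule's KO ratio favoured a low KO HFD mean, so the differences of both genes on HFD and averaged over the diets are a description.

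**Figure D5:**
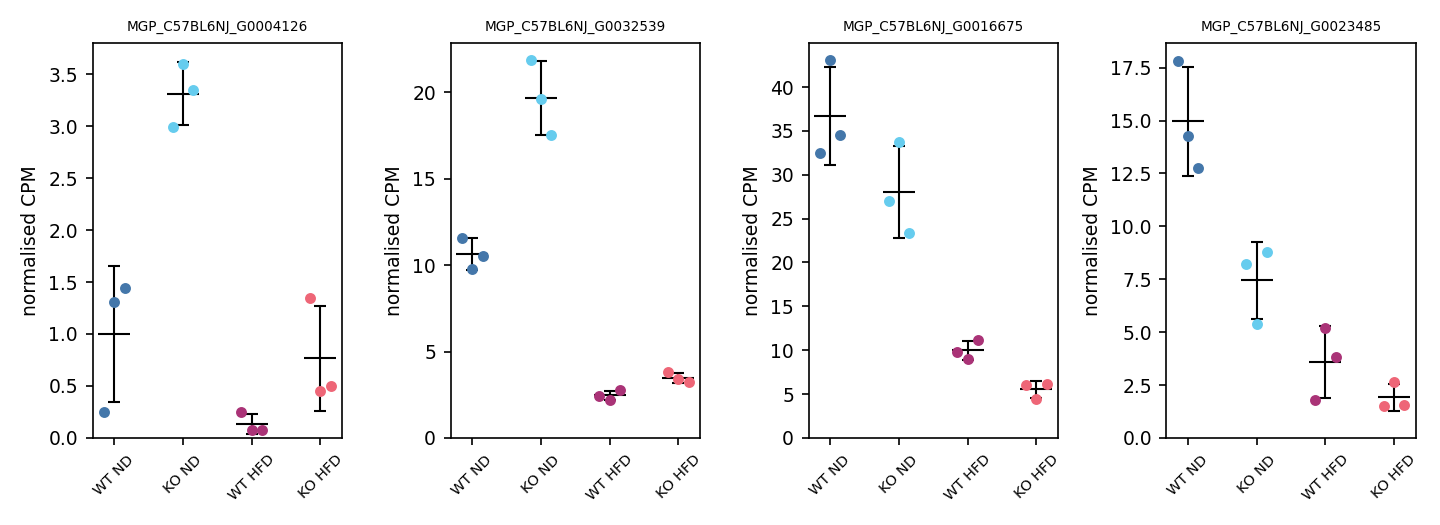
Normalised CPM of 4 members in each library, by group, with points for the 3 libraries and bars for the mean and SD; each panel has its own linear scale from 0. The first 2 genes have higher levels in KO and the other 2 lower, and all 4 have lower group means on HFD than on ND in each genotype.

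The interaction compares the diet ratios of the genotypes, and the rule chose the members on both of these ratios, so its counts among members are a description from which nothing is read. By edgeR's quasi-likelihood test it was called for 0 members with a response higher in KO and 0 with one lower, beside 0.766% and 0.441% of all genes tested. At an unadjusted p under 0.05 there were 12 and 4 members, beside 9.16% and 7.33% of all genes. DESeq2 called 2 and 2, beside 2.90% and 1.84%. Without KO HFD replicate 1 edgeR called 12 and 1, beside 4.05% and 2.59%, and without WT HFD replicate 1 it called 0 and 1, beside 0.452% and 0.388%.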

How the data were processed

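Liver RNA of 12 samples had been extracted with Trizol and made into libraries with a NEBNext Ultra kit, per the labels' protocols. The deposited file holds raw read counts per gene, with 1 column per sample. Reads were handled by the authors with HISAT2 2.0.5 and featureCounts 1.5.0-p3, with mm39 as the build, per the submitters' processing notes, whereas 41096 of the row IDs belong to a C57BL/6NJ strain annotation and 1458 rows are unannotated loci, so no coordinates are given. The strand setting and the treatment of reads shared by similar genes are not given in the sources used here. Members that overlap or resemble other genes are therefore uncertain.

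The members and lists were chosen with earlier results of these data known. Counts were filtered with filterByExpr, scaled by TMM and tested with edgeR 4.0.16 (quasi-likelihood, robust, R 4.3.3) in 1 model of 4 group means over 13843 genes, with Benjamini-Hochberg adjustment over all of them and calls at 0.05. Standard errors are the absolute log2 difference over the root of F. DESeq2 1.42.0 was an alternative. The steps were tested on simulated data in which each gene had the same mean level on both diets. The low levels of the members on HFD were thus not simulated. Of 100 genes changed between genotypes by a log2 of 1, 57 were recovered on ND and 52 on HFD. Of 100 changed by a log2 of 2, 88 and 85 were. Labels do not tie replicates to separate animals, so the spread behind each p-value may be only technical.

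The rule for IDs named the 2 members with the largest positive and the 2 with the largest negative difference between KO and WT averaged over diets among called members, filled by lowest p. Gene lists and cell type markers needed symbols and were not analysed here. Where a library had 0 counts, up to 3 remain possible. Intervals of count ratios are exact binomial at 95% and cover counting error only. The choice of members without the 2 libraries compared and the reading of the members without each KO HFD library were added after seeing the data.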

Additional observations from a re-analysis of the deposited data

How the results depend on the processing

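Of 215 recomputed values, most of them counts, 31 moved beyond the margin set for them, 16 lost a call and 4 gained one. The margin for counts was 1.5-fold. No median difference between genotypes is part of this tally of changes, although the medians varied as given at the end of this paragraph. The number of members depended on the rule: 123 and 85 with 0.5 and 1 CPM added, 102 and 297 with ratios of at most 0.2 and 0.3, 118 with a mean of at least 5 CPM and 115 with TMM scaling. It was 143 to 234 with 1 library left out. Leaving out 1 library gave 0 to 9 called members on ND, 0 to 21 on HFD, 1 to 27 averaged over diets and 0 to 13 for the interaction. The share of all genes called moved too. Higher and lower in KO, it was 0.162% to 3.58% and 0.486% to 4.71% on ND, and 0.0282% to 3.34% and 0.0211% to 2.45% on HFD. It was 0.0633% to 3.17% and 0.373% to 4.30% on average, and 0.0492% to 4.05% and 0.0281% to 2.59% for the interaction. With 1 library left out, 302 to 344 genes were called lower in KO among those chosen in WT, and 225 to 247 in the reverse check. The median difference was 0.15 to 0.18 on ND, 0.07 to 0.42 on HFD and 0.13 to 0.31 on average.

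DESeq2 called 15 members on ND (4.46% of all genes higher and 4.98% lower), 2 on HFD (0.982% and 0.903%), 12 on average (1.58% and 2.86%) and 4 for the interaction (2.90% and 1.84%), and the cause was not tested. With all genes kept whatever their counts, 7 were called on ND, beside 1.22% of all genes higher and 1.64% lower. On HFD 1 was (0.109% and 0.189%) and on average 6 were (0.344% and 0.885%). A fit of the 6 ND libraries alone called 13, beside 3.17% and 3.95% of all genes. The cause was not tested for either.

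Replicate numbers are shared by the groups, and the labels do not say what a number marks. Correlations of same-numbered libraries' deviations from their group means were -0.03 to 0.28 over 18 pairs and over 0.1 in 8. In 11 of 24 comparisons of a library with another group, it correlated best with its own number. With a replicate block 6 members were called on ND, beside 2.82% of all genes higher and 3.62% lower, and 0 on HFD (0.0795% and 0.260%). On average 4 were called (0.607% and 1.70%), and 0 for the interaction (0.852% and 0.578%). With the block 341 and 248 genes were lower in the checks across genotypes. The block gave MGP_C57BL6NJ_G0004126 an edgeR adjusted p of 0.0529, not called. Members had a median of 23 to 27 counts per library on HFD, and the part of depth in the HFD comparisons was not tested.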

Other observations

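Rows outside the abundance range and the annotated set held few genes of this pattern. Among 417 unannotated loci with a mean of 1 to 1000 CPM, 2 met the same ratios in both genotypes (0.480%), against 1.59% of the annotated genes. The more abundant had 58.6, 84.5 and 81.8 CPM on library totals in WT ND and 107, 128 and 116 in KO ND. On HFD it had 14.6, 16.5 and 10.6 CPM in WT, and 11.5, 59.5 and 8.50 in KO. KO HFD replicate 2 lay above the other 5 HFD libraries for this locus, and below all KO ND libraries. Of 108 annotated genes above 1000 CPM, 1 met the ratios (0.926%), and of 2744 from 0.2 to 1 CPM 26 did (0.948%). Of 223 in the ID block that the rule left out, 2 did (0.897%). Below 1 CPM the added 0.1 CPM makes a low ratio harder to reach, and its part was not tested.

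The relative numbers of lower and higher genes were unequal in this range. Under the same ratio the rule found 186 genes lower and 12 higher in both genotypes among 11702, or 1.59% and 0.103%. On library totals the median log2 difference between HFD and ND over all genes tested was -0.32 in WT and -0.19 in KO. After TMM scaling it was -0.03 and 0.01. The shift from library totals is part of that contrast, and the higher genes were not counted with TMM scaling.

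Variation between replicates was larger for the members on HFD than on ND. The median coefficient of variation over the members was 15.2% in WT ND, 14.1% in KO ND, 31.4% in WT HFD and 34.7% in KO HFD, beside 13.4%, 11.6%, 14.1% and 17.3% over all genes in the abundance range. For the 61 members with at least 20 CPM on ND it was 13.3%, 10.7%, 22.8% and 32.0%. Counts per library were lower on HFD, and their part in these values was not tested.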
